A study of Mus musculus with 24 samples.

Results

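In all, 10 genes of mitochondrial fatty acid oxidation were followed through adipocyte differentiation of 3T3-L1 cells, a mouse embryonic fibroblast line that turns into fat cells after hormonal induction: *Cpt1a*, *Cpt2*, *Acadvl*, *Acadl*, *Acadm*, *Etfdh*, *Hadha*, *Hadhb*, *Acaa2* and *Decr1*. They were found by symbol among the 26995 gene symbols of the count tables, and a gene with more than 1 entry for its annotated 3′ end (*Cpt1a* and *Hadhb*) was represented by the entry with the highest mean count, or the first listed where entries had the same mean, as they had here, so 10 entries of 91830 are described. Cells were kept in DMSO or in 0.5 μM ML-792, an inhibitor of the SUMO-activating enzyme, and harvested at day −2, as confluent pre-adipocytes before induction, and at days 1, 3 and 7. The layout drawn for the experiment shows both treatments from day −2 on, and how long before the day −2 harvest ML-792 was added is not given in the sources used here. Differentiation medium held serum, dexamethasone, IBMX and insulin, and from day 3 a maintenance medium with insulin followed. Before harvest all 8 conditions received 100 μM 4-thiouridine for 45 min, and each had 3 biological replicates named A, B and C, which makes 24 libraries of 1 cell line. QuantSeq counts all reads at the 3′ ends of mRNAs, and SLAMseq counts, in the same libraries, the reads with a T-to-C conversion that marks RNA made during labelling.

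Mitochondrial fatty acid oxidation turns long-chain fatty acids into acetyl-CoA. The carnitine shuttle carries acyl groups across the mitochondrial membranes, and its outer enzyme, carnitine palmitoyltransferase 1, is held back by malonyl-CoA, the precursor of fatty acid synthesis. Inside, each round of the spiral takes an oxidation by an acyl-CoA dehydrogenase, a hydration, another oxidation and a thiolytic cleavage, and the electrons of the first step reach the respiratory chain through ETF and its dehydrogenase. White fat cells mainly store triglyceride, but mitochondria multiply as pre-adipocytes mature, and PPAR family receptors are known activators of many of these genes.

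The promoters are shown because 9 of the 10 genes moved together over time, as described further on, and because PPAR family receptors are known regulators of many of them. RefSeq promoters (GRCm38.p6, 250 bases before to 50 after the start site) were searched for 8 of the 10 genes. The window of *Cpt1a* lies inside its RefSeq gene, which begins at chr19:3322326, so its positions refer to a later start site. *Decr1* had no promoter to search and *Acaa2* was left out of the search, so the counts below do not cover either gene. The motifs searched on both strands were AGGTCA (the core site of nuclear receptors), AGGTCANAGGTCA (its direct repeat, DR1, which PPAR and RXR bind), TCAAGGTCA (the extended site of estrogen-related receptors), CACGTG (E-box), GGGCGG (GC box) and ATTGG (reverse CCAAT box), where the second and the third contain the first. AGGTCA was in 3 of 8 promoters, against 16.3% of all 32851 promoters in the table, and it lies at position −94 of *Cpt1a*, −249 of *Acadm* and −87 of *Acadvl*. No promoter of the 8 held DR1 (0.0396% of all), TCAAGGTCA (0.423%) or CACGTG (7.15%). GGGCGG was in 6 of 8, against 35.7% of all, and ATTGG in 2 of 8, against 37.4%. *Hadha* and *Hadhb* lie head to head on chromosome 5 with 272 bases between their start sites, so their windows share 228 bases read in opposite directions. The only GGGCGG match of *Hadha* lies in this stretch and is also counted for *Hadhb*, so the 6 promoters with GGGCGG are not independent. The 250 bases before the start site are printed 5′ to 3′ on the strand of each gene, with the motif matches of either strand in capitals, for *Cpt1a* (chr19:3323051-3323300, plus strand), *Acadm* (chr3:153944644-153944893, minus), *Acadvl* (chr11:70015429-70015678, minus), *Hadha* (chr5:30154981-30155230, minus) and *Hadhb* (chr5:30155003-30155252, plus).
Cpt1a: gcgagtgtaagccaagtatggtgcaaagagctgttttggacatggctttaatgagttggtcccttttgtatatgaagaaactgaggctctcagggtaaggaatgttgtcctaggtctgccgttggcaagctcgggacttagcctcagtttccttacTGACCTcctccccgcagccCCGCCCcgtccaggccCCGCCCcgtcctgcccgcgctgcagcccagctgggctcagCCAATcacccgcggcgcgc
Acadm: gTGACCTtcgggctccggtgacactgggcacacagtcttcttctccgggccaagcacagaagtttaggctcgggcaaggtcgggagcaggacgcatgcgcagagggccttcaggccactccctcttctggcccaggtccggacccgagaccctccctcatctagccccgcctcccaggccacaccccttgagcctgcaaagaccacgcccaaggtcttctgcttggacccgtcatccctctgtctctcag
Acadvl: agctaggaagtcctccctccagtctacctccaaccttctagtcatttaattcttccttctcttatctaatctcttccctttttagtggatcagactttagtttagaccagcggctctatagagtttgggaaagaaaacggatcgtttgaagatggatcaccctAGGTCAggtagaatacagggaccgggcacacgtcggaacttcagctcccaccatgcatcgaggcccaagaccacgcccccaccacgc
Hadha: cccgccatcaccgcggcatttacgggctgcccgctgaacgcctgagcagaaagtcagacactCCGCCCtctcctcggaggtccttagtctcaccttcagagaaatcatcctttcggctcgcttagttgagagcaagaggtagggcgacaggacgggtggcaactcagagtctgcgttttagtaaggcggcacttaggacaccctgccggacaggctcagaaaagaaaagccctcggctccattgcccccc
Hadhb: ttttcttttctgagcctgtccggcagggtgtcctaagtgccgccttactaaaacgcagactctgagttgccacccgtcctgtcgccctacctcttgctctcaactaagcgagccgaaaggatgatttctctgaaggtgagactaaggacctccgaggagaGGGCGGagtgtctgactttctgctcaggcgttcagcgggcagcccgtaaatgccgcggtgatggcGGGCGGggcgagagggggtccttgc

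Matches are letters in a window and not binding sites. Of the genes with the core site of nuclear receptors, *Acadm* and *Acadvl* rose over time in DMSO, while *Cpt1a* fell. The promoter counts mix both directions and leave out *Acaa2* and *Decr1*, so they do not describe the genes that moved together as a set. The *Cpt1a* and *Acadm* windows both hold AGGTCA on the reverse strand, where it reads TGACCT, and the *Acadvl* window holds it on the gene's strand.

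Counts summed over all entries, of which several can belong to the same gene, were 13554718 to 27013352 per library (median 17428698), with 115709 to 820046 labelled. With 1 entry per gene symbol the sums were 9118951 to 18306796, with 78312 to 553883 labelled. The 10 genes together had 10482 to 42905 total reads in a library and only 47 to 162 labelled reads (median 103.5), so single labelled values carry a wide counting error. All 10 passed the filter on low total counts and 9 the filter on low labelled counts, all except *Hadhb*. The adipocyte markers rose, 8 of 8, by day 7 in DMSO, with a summed normalised count of 21790 to 23270 at day −2 and 641700 to 727700 at day 7, and 6 of 6 tested pre-adipocyte and fibroblast markers fell, from 278700 to 337700 down to 25210 to 37730. In ML-792 the day 7 sums were 867600 to 893500 and 44010 to 63320. Over all entries in DMSO, 16% were called higher at day 7 than at day −2 and 16.9% lower. Of the 5 brown fat markers, *Ucp1* and *Prdm16* had at most 3 and 9 reads in any library, but the list's mean sum went from 14.83 at day −2 to 1464 at day 7 in DMSO, with *Cidea* (log2 8.33) and *Elovl3* (6.65) higher. *Dio2* went the other way at a low level, from a mean of 4.952 to 0.7583, and was not called. Of the 4 muscle markers *Myod1* had at most 1 read, while *Des* rose from a mean of 25.25 to 358.6 (log2 3.82). The 5 macrophage markers summed to at most 153.2 in a library, with up to 121 reads of *Cd68* and with *Ptprc* at 0 in all, and the 4 endothelial markers summed to at most 20.63. The part of these markers in the results over time was not tested. Replicate B had the highest *Acadl* count in 8 of 8 conditions and the lowest *Hadha* count in 7 of 8.

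In DMSO, 9 of the 10 genes were higher at day 7 than at day −2 and 1, *Cpt1a*, was lower. The log2 fold changes of the 9 lay between 1.40 for *Acadl* and 3.47 for *Acadm*, and that of *Cpt1a* was -2.85. Over the 26364 entries tested, 16% were called higher and 16.9% lower in this comparison, with a median log2 fold change of -0.031, whereas the median of the 10 genes was 2.29. At day 3 the same genes had already divided in this way, with 9 higher (14.6% of all entries) and *Cpt1a* lower (16.4%). At day 1, 4 were higher (5.99% of all) and none lower (7.87%). These calls use edgeR's quasi-likelihood test with Benjamini-Hochberg adjustment over all entries and an adjusted p under 0.01, and the 3 comparisons share the day −2 libraries. The libraries are bulk RNA, in which fewer cells of a type and less RNA per cell cannot be told apart.

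**Figure D1:**
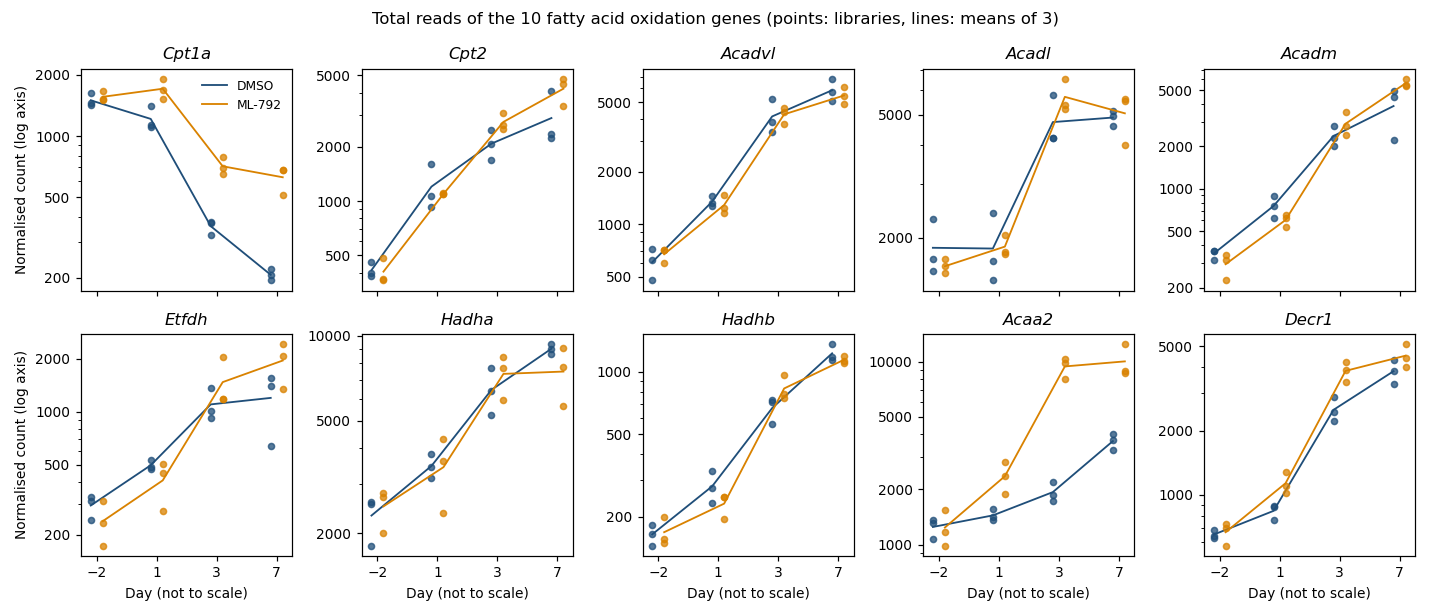
Normalised QuantSeq counts (log axis) of the 10 genes against day in DMSO (blue) and ML-792 (orange), with 1 point per library and lines through the means of 3. *Cpt1a* falls from 1422 to 1625 at day −2 to 194.5 to 221.7 at day 7 in DMSO while the other genes rise, and the ML-792 points of *Cpt1a* and *Acaa2* lie above those of DMSO from day 1 on.

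The carnitine shuttle split in direction. *Cpt1a* encodes the outer, malonyl-CoA sensitive carnitine palmitoyltransferase, and its entry is chr19:3383842-3385733 (mm10, plus strand). In replicates A, B and C its normalised counts, scaled to the mean effective library size, were 1451, 1625 and 1422 at day −2, 1137, 1403 and 1103 at day 1, 379.3, 327 and 373.3 at day 3 and 205.7, 221.7 and 194.5 at day 7 in DMSO. Each day lay wholly below the one before. The fall was 4.17-fold by day 3 (log2 -2.06, SE 0.16, adjusted p = 9.2e-08) and 7.23-fold by day 7 (log2 -2.85, SE 0.17, adjusted p = 3.4e-09), and day 7 was also below day 3 (log2 -0.80, adjusted p = 0.0033). *Cpt2*, the inner palmitoyltransferase that restores acyl-CoA (chr4:107903982-107904231, minus strand), had 400.5, 457.2 and 381.3 at day −2, 924, 1615 and 1067 at day 1, 1689, 2494 and 2067 at day 3 and 2243, 4068 and 2357 at day 7. Days 3 and 7 overlapped and all other neighbouring days were apart. *Cpt2* was 2.91-fold higher at day 1 (log2 1.54, SE 0.26, adjusted p = 0.00047), the highest log2 fold change of the 10 genes at that day, and 7-fold higher at day 7 (log2 2.81, SE 0.27, adjusted p = 5.6e-07).

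The acyl-CoA dehydrogenases, which start each round and differ in the chain length they accept, all rose, but not on the same day. *Acadvl*, for very long chains (chr11:70010183-70010295, minus strand), had 622.4, 477.5 and 719.9 normalised counts at day −2, 1323, 1269 and 1458 at day 1, 3379, 3865 and 5192 at day 3 and 5050, 6819 and 5694 at day 7 in DMSO. *Acadm*, for medium chains (chr3:153922353-153922930, minus strand), had 364.4, 365.6 and 314.2, then 761.1, 884.7 and 627.2, then 2002, 2799 and 2311, and 4900, 2222 and 4464 at day 7. In both genes the day 1 values lay above all those of day −2, and the log2 fold changes at day 1 were 1.15 for *Acadvl* (SE 0.20, adjusted p = 0.00069) and 1.12 for *Acadm* (SE 0.25, adjusted p = 0.0045). By day 7 *Acadm* was 11.1-fold higher (log2 3.47, SE 0.27, adjusted p = 6e-08) and *Acadvl* 9.65-fold (log2 3.27, SE 0.22, adjusted p = 1e-08). *Acadl*, for long chains (chr1:66830839-66831433, minus strand), had 1710, 2300 and 1567 at day −2 and 1683, 2405 and 1458 at day 1, then 4214, 5782 and 4224 at day 3 and 4958, 5159 and 4592 at day 7. Its counts thus overlapped between days −2 and 1 and between days 3 and 7. *Acadl* was 2.55-fold higher at day 3 (log2 1.35, adjusted p = 0.00011) and 2.64-fold at day 7 (log2 1.40, adjusted p = 7.4e-05), and its log2 difference between days 7 and 3 was 0.05 (95% interval -0.4 to 0.5).

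*Etfdh* encodes the ETF dehydrogenase that passes electrons from these enzymes to ubiquinone (chr3:79603788-79604001, minus strand). Its normalised counts in DMSO were 241.9, 325.1 and 310.8 at day −2, 483.1, 533.1 and 471.5 at day 1, 920.7, 1015 and 1364 at day 3 and 1404, 638.1 and 1551 at day 7. Replicate B of day 7 lay below every library of day 3, and *Acadm* was also lowest at day 7 in that replicate. *Etfdh* was 3.76-fold higher at day 3 (log2 1.91, SE 0.28, adjusted p = 4.5e-05) and 4.09-fold at day 7 (log2 2.03, SE 0.28, adjusted p = 2.2e-05). Among the 10 genes it had the widest spread between replicates, with a median coefficient of variation of 28.4%, against 8.88% for *Cpt1a*, the narrowest.

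The trifunctional protein carries out hydration, the next oxidation and cleavage for long chains, with *Hadha* encoding its alpha and *Hadhb* its beta subunit. *Hadha* (chr5:30118304-30119814, minus strand) had 2584, 1807 and 2540 normalised counts at day −2 in DMSO, 3440, 3139 and 3809 at day 1, 6374, 5237 and 7716 at day 3 and 8638, 9376 and 9029 at day 7. *Hadhb* (chr5:30184089-30184593, plus strand) had 145, 182.4 and 165.4, then 234, 330.8 and 275.3, then 557.9, 714 and 728.3, and 1171, 1142 and 1359 at day 7. In both subunits no day overlapped with the next. The fold at day 7 was 3.9 for *Hadha* (log2 1.96, SE 0.19, adjusted p = 6.6e-07) and 7.45 for *Hadhb* (log2 2.90, SE 0.20, adjusted p = 1.2e-08). *Hadhb* was called at day 1 (log2 0.77, adjusted p = 0.0077) and again between days 3 and 7 (log2 0.88, adjusted p = 0.0038), and the values of *Hadha* were 0.58 (adjusted p = 0.034) and 0.49 (adjusted p = 0.095). The entry of *Hadha* runs 1119 bases past the end of its current RefSeq gene and shares 77 bases with an entry of *Gareml* on the other strand, which had a mean of 20.8 reads.

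*Acaa2*, the thiolase that closes the round (chr18:74805940-74806207, plus strand), rose late in DMSO. Its normalised counts were 1360, 1066 and 1317 at day −2, 1354, 1560 and 1415 at day 1, 1860, 1736 and 2207 at day 3 and 3276, 4008 and 3739 at day 7. It was 1.55-fold higher at day 3 (log2 0.63, SE 0.16, adjusted p = 0.0057) and 2.94-fold at day 7 (log2 1.56, SE 0.17, adjusted p = 1.8e-06). The day 3 call was lost without replicate A (adjusted p = 0.062), without replicate C (adjusted p = 0.093) and without the filter on low counts (adjusted p = 0.016). *Decr1*, the dienoyl-CoA reductase that lets unsaturated chains enter the round (chr4:15917240-15919034, minus strand), had 642.4, 629 and 682.4 at day −2, 760.2, 889.2 and 877.3 at day 1, 2216, 2447 and 2874 at day 3 and 3337, 4304 and 3804 at day 7. No day of *Decr1* overlapped with the next, and the gene was 3.86-fold higher at day 3 (log2 1.95, adjusted p = 1.9e-07) and 5.86-fold at day 7 (log2 2.55, adjusted p = 1e-08).

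Of the successive steps, that from day 1 to day 3 held the most calls. Over it, 7 genes rose (9.36% of all entries) and *Cpt1a* fell (9.7%), while *Cpt2* (log2 0.79, adjusted p = 0.028) and *Acaa2* (log2 0.42, adjusted p = 0.068) were not called. From day 3 to day 7, *Acaa2* (log2 0.93, adjusted p = 0.0011) and *Hadhb* rose (4.94% of all) and *Cpt1a* fell (3.8%). Without replicate A, or without replicate C, 5 genes were called from day 1 to day 3. With either left out, none was called from day 3 to day 7, although 7 had an unadjusted p under 0.05 with all libraries and DESeq2 called *Cpt1a*, *Hadhb*, *Acaa2* and *Decr1* there. At day 1 against day −2, 0 genes were called without replicate A and 1, *Acadvl*, without replicate C. The order of days was the same in all 3 replicates for *Cpt1a*, *Cpt2*, *Acadvl*, *Hadha*, *Hadhb* and *Decr1*. How many of all entries share this trait was not counted.

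Under ML-792 the time course kept 9 genes higher and *Cpt1a* lower than at day −2, both at day 3 (17.3% of all entries higher and 17.7% lower) and at day 7 (17.5% and 17.4%). At day 1, 5 were higher (9.41% of all) and none lower (10.7%), namely *Cpt2* (log2 1.43), *Acadm* (1.04), *Acadvl* (0.94), *Acaa2* (0.93) and *Decr1* (0.76), and of these only *Cpt2* was called without replicate A or without replicate C. The fall of *Cpt1a* was 2.2-fold at day 3 (log2 -1.14, adjusted p = 2.9e-05) and 2.49-fold at day 7 (log2 -1.32, adjusted p = 7.2e-06). *Acaa2* was 7.6-fold higher at day 3 (log2 2.93, SE 0.22, adjusted p = 1.5e-07) and 8.09-fold at day 7 (log2 3.02, SE 0.22, adjusted p = 9.4e-08). *Acadm* reached 19.1-fold at day 7 (log2 4.25, SE 0.20, adjusted p = 1.4e-09).

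To ask whether sumoylation bears on these genes, the libraries of each day were set against each other by treatment, with an adjusted p under 0.1 as the threshold. *Acaa2* and *Cpt1a* were higher in ML-792 at days 1, 3 and 7, *Decr1* at day 3, and none of the 10 was lower at any day. The counts were thus 2 higher at day 1 (3.16% of all entries, with 3.33% lower), 3 at day 3 (6.62% and 6.54%) and 2 at day 7 (5.31% and 4.5%). At day −2, 0 of 10 were called and 0% of all entries in either direction by edgeR, and no member had an unadjusted p under 0.05. DESeq2 called 0 members at day −2 too. The ML-792 and DMSO time courses above use the same libraries as these comparisons.

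**Figure D2:**
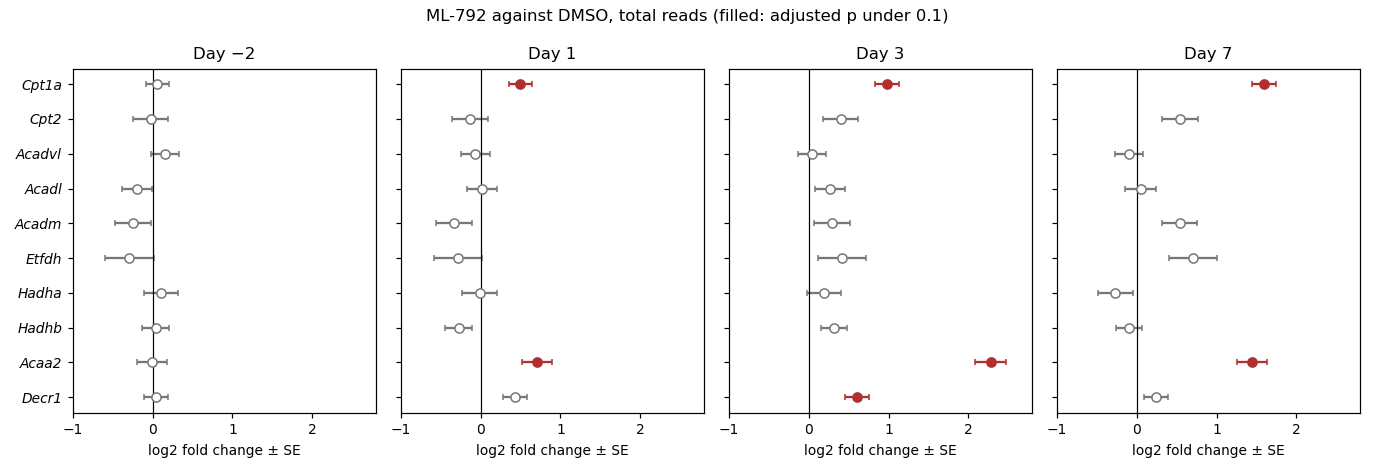
Log2 fold change of total reads in ML-792 against DMSO for the 10 genes on each day, with bars of 1 standard error, filled where the adjusted p is under 0.1. *Acaa2* stands at 2.28 at day 3 and *Cpt1a* at 1.60 at day 7, and at day 7 *Acadl*, *Acadvl* and *Hadhb* lie at 0.05, -0.10 and -0.10.

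*Acaa2* had the largest difference of the 10 genes. In ML-792 its normalised counts were 1177, 985.9 and 1552 at day −2, 2372, 1899 and 2814 at day 1, 9807, 8061 and 10350 at day 3 and 12490, 8661 and 8913 at day 7. From day 1 on, every ML-792 library lay above every DMSO library of its day. The difference was 4.86-fold at day 3 (log2 2.28, SE 0.195, adjusted p = 1.4e-08), 2.73-fold at day 7 (log2 1.45, SE 0.19, adjusted p = 1.5e-05) and 1.64-fold at day 1 (log2 0.71, SE 0.19, adjusted p = 0.024). The day 1 call was lost without replicate A (adjusted p = 0.41) or replicate C (adjusted p = 0.37).

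*Cpt1a* in ML-792 had 1523, 1658 and 1499 at day −2, 1694, 1917 and 1519 at day 1, 696.2, 785 and 647.8 at day 3 and 682.8, 683.9 and 513.2 at day 7. Its ML-792 libraries overlapped with DMSO at day −2 and lay above all DMSO libraries on each later day. It was 1.97-fold higher at day 3 (log2 0.98, SE 0.15, adjusted p = 5.5e-05) and 3.02-fold at day 7 (log2 1.60, SE 0.15, adjusted p = 1.6e-07). At day 1 it was 1.41-fold higher (log2 0.49, SE 0.14, adjusted p = 0.048), a call lost without replicate A, without replicate C, without the filter and with the 6 libraries of the day alone (adjusted p = 0.58, 0.27, 0.34 and 0.25). *Decr1* had 697, 578.1 and 730.8 at day −2, 1097, 1021 and 1289 at day 1, 4213, 3397 and 3877 at day 3 and 5126, 4399 and 4013 at day 7 in ML-792. The ML-792 libraries of *Decr1* lay above DMSO at days 1 and 3 and overlapped at day 7. Its difference was called at day 3 (log2 0.61, SE 0.15, adjusted p = 0.0087), but not without replicate A (log2 0.45, adjusted p = 0.34).

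The other 7 genes were not called at any day with all libraries and no term for the replicate letter. With the letter as a block, *Cpt2* was called at day 3 (adjusted p = 0.043) and day 7 (0.0047), *Hadhb* at day 3 (0.092) and *Etfdh* at day 7 (0.033). For *Cpt2* the ML-792 counts were 362.3, 485.4 and 368.4, then 1102, 1096 and 1087, then 2632, 3101 and 2518, and 4458, 4781 and 3377 at day 7, and only those of day 3 lay wholly above DMSO. *Acadm* had 341.6, 225.2 and 313.3, then 651.1, 539.3 and 619, then 2409, 2783 and 3495, and 6036, 5331 and 5414 at day 7, where every library was above those of DMSO. *Etfdh* had 232.9, 173 and 309.3, then 445.8, 273.2 and 500.8, then 1175, 1187 and 2056, and 2077, 1354 and 2429, and overlapped with DMSO on all 4 days. At day 7 the log2 differences of these 3 genes were 0.54 for *Cpt2* (95% interval 0.08 to 1, adjusted p = 0.17), 0.54 for *Acadm* (0.07 to 1, adjusted p = 0.18) and 0.71 for *Etfdh* (0.08 to 1.33, adjusted p = 0.2). Without replicate B, *Cpt2* was called at days 3 (log2 0.46, adjusted p = 0.038) and 7 (log2 0.77, adjusted p = 0.001) and *Acadm* at day 3 (log2 0.45, adjusted p = 0.066).

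*Acadl* in ML-792 had 1536, 1705 and 1620 at day −2, 1771, 2047 and 1808 at day 1, 5384, 6550 and 5226 at day 3 and 5548, 5636 and 3996 at day 7. *Acadvl* had 712.6, 599.4 and 710.9, then 1247, 1155 and 1469, then 4372, 3756 and 4657, and 6119, 4866 and 5412. Both genes overlapped with DMSO on all 4 days, and at day 7 the intervals of the log2 difference ran from -0.34 to 0.44 and from -0.46 to 0.26. For the subunits of the trifunctional protein the groups overlapped at day 7. *Hadha* had 2683, 2010 and 2775, then 3596, 2359 and 4329, then 7690, 5939 and 8393, and 9047, 5641 and 7755, with a day 7 difference of -0.27 (95% interval -0.71 to 0.18). *Hadhb* had 150.1, 156.5 and 198.5, then 195.4, 249.4 and 248.5, then 745.2, 783.7 and 958, and 1105, 1125 and 1192, with -0.10 (-0.44 to 0.24). The day 3 counts of *Hadhb* all lay above DMSO, with a log2 difference of 0.31 (adjusted p = 0.3).

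The difference between the ML-792 effects of the days was tested directly. The F test of the 3 interaction terms called *Acaa2* (adjusted p = 1.7e-05) and *Cpt1a* (adjusted p = 0.00012), where 9.77% of all entries were called. Against the effect at day −2, both were higher at day 3 (2.67% of all entries higher, 2.31% lower) and at day 7 (1.73% and 1.52%), with log2 differences of 2.29 and 1.46 for *Acaa2* and 0.92 and 1.54 for *Cpt1a*. At day 1, 0 genes were called in this way (1.08% and 0.751% of all), with 2 at an unadjusted p under 0.05. For *Acaa2* the day 3 value was the higher one and for *Cpt1a* the day 7 value, and the difference between days 3 and 7 was not tested. Without replicate A, neither gene was called at day 7 (adjusted p = 0.42 for *Acaa2* and 0.1 for *Cpt1a*), and *Cpt1a* was not called at day 3 without replicate A (0.3) or C (0.11).

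Markers of the cell state moved with ML-792 as well. At day 3, 4 of 8 adipocyte markers were lower (6.54% of all entries) and 3 of 6 pre-adipocyte and fibroblast markers higher (6.62%). At day 7, 5.31% of all entries were higher and 4.5% lower. On that day *Adipoq* (log2 0.8) and *Fabp4* (0.8) were higher and *Slc2a4* (-1.42) lower. Of the pre-adipocyte and fibroblast markers, *Pdgfra* (1.09), *Col1a1* (0.75) and *Col3a1* (0.88) were higher and *Dlk1* (-1.05) lower. The summed counts of the brown fat list were 355.1 to 518.7 in DMSO and 2114 to 2503 in ML-792 at day 3, and 1323 to 1541 and 2276 to 3829 at day 7. At day 7 the higher sum lay in *Elovl3*, a fatty acid elongase, with a mean of 2804 in ML-792 and 608.3 in DMSO (log2 2.2), while *Cidea*, a lipid droplet protein, was lower (204.2 against 854.6, log2 -2.06) and *Dio2* higher at a low level (15.16 against 0.7583, log2 4.14). The muscle marker *Des* was lower at day 7 (-1.52), and among macrophage markers 1, *Csf1r*, was higher (3.82) at a summed level of the list of 31.72 to 51.59. The part of these cell states in the ML-792 results was not tested.

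The labelled reads gave fewer calls. Labelled reads were scaled by the total reads, as in the methods of the study, and on this scale the median log2 fold change of the 10186 entries tested against day −2 was -1.23 (day 1), -1.63 (day 3) and -1.51 (day 7). The medians of the 9 genes were -0.43, 0.14 and 0.86. At day 7, *Acadm* was higher (1.86% of all entries) and *Cpt1a* lower (28.6%), both at an adjusted p under 0.01. At day 1 (0.609% of all higher and 18.6% lower) and day 3 (1.97% and 31.7%) none of the 9 was called by edgeR, where 0 and 2 had an unadjusted p under 0.05 and DESeq2 called 0 and 1.

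**Figure D3:**
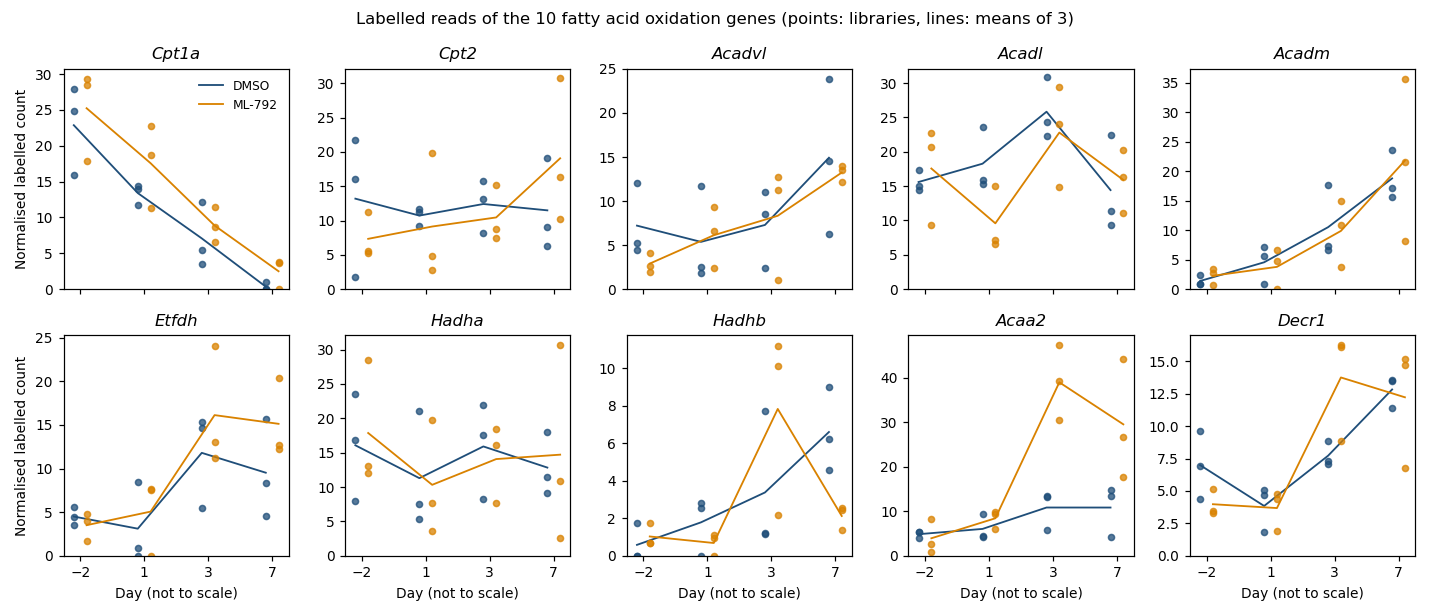
Normalised labelled counts of the 10 genes against day, with 1 point per library and lines through the means of 3, in DMSO (blue) and ML-792 (orange). *Cpt1a* runs down to 0 or 1 labelled read at day 7 in DMSO, *Acadm* runs up from 1 to 3 labelled reads at day −2, and at day 3 the ML-792 points of *Acaa2* lie above those of DMSO.

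The labelled read counts of *Cpt1a* in DMSO were 31, 18 and 32 at day −2, 15, 16 and 14 at day 1, 5, 3 and 10 at day 3 and 0, 1 and 0 at day 7. Against a floor of 3 counts per library, *Cpt1a* was at least 6.92-fold lower at day 7 than at day −2 (adjusted p = 3e-05 in edgeR's fit). *Acadm* had 3, 1 and 1 labelled reads at day −2, 6, 8 and 1 at day 1, 6, 15 and 6 at day 3 and 21, 15 and 15 at day 7. With day −2 at the floor it was at least 7.35-fold higher at day 7 (adjusted p = 0.0017), a call lost without replicate A (adjusted p = 0.028) or C (adjusted p = 0.015). The directions of both genes were thus those of the total reads. As a share of total reads, the labelled reads of *Acadm* averaged 0.392%, 0.562%, 0.425% and 0.522% over the successive DMSO days. The first and last of these groups overlapped. For *Cpt1a* the averages were 1.55%, 1.11%, 1.93% and 0.156%. All libraries were labelled, so the background of T-to-C reads without 4-thiouridine was not tested. *Acaa2* had 5, 6 and 6, then 10, 5 and 5, then 12, 5 and 11, and 12, 4 and 13 labelled reads over the DMSO days, and the groups overlapped from day 1 on. *Acadl*, in contrast, had 9 to 28 labelled reads in every DMSO library, with log2 0.73 at day 3 (95% interval -0.39 to 1.84) and -0.12 at day 7 (-1.26 to 1.03).

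Scaled instead by the labelled reads, which moves the medians of all entries to -0.23, -0.44 and -0.39, *Acadm* (log2 3.98, adjusted p = 0.00046) and *Acadl* (log2 1.9, adjusted p = 0.0056) were called higher at day 3. At day 7, *Acadm* (log2 4.71, adjusted p = 2.4e-05) and *Cpt1a* (log2 -4.52, adjusted p = 0.0015) kept their calls. On this scale 515 entries were higher and 717 lower at day 3, and 476 and 716 at day 7. *Cpt2*, *Hadha* and *Acadl* changed sign at day 7 with the scaling, from -0.20, -0.32 and -0.12 to 0.96, 0.82 and 0.98, and none of these values passed the threshold.

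ML-792 against DMSO gave no call among the 9 genes in labelled reads at day −2 (0% of all entries in either direction), day 1 (0.137% higher and 0.717% lower), day 3 (0.373% and 0.589%) or day 7 (0.0589% and 0.844%). At an unadjusted p under 0.05 there was 1 gene at day 3 and 1 at day 7, in both cases *Acaa2*. Its labelled reads in ML-792 were 1, 12 and 4 at day −2, 9, 5 and 10 at day 1, 36, 24 and 38 at day 3 and 36, 21 and 13 at day 7. The 3 libraries of day 3 lay above the 3 of DMSO, and the log2 difference was 1.83 (SE 0.61, adjusted p = 0.2). DESeq2 (log2 1.86, adjusted p = 0.072) and the fit of only the 6 libraries of the day (log2 1.83, adjusted p = 0.059) called it. At day 7 the difference was 1.45 (adjusted p = 0.34). *Cpt1a* had 3, 3 and 0 labelled reads in ML-792 at day 7, so both groups were at the floor.

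The labelled share, labelled over total reads, was lower on each later day than at day −2, over all genes and over these 10. Over all genes in DMSO, day −2 had 3.19% ± 0.47, day 1 had 1.28% ± 0.0764, day 3 had 1.02% ± 0.114 and day 7 had 1.01% ± 0.0925 (SD, n = 3 per day). For the 10 genes summed it was 0.99% ± 0.299, 0.611% ± 0.0957, 0.43% ± 0.0811 and 0.31% ± 0.108. Their share was thus below that of all genes on each day. It was not adjusted for the T bases of the entries, which ran from 33 for *Acadvl* to 588 for *Decr1*, and RNA turnover was not tested. In ML-792 the sum had 0.917% ± 0.0471, 0.522% ± 0.0684, 0.386% ± 0.0192 and 0.313% ± 0.0614, within the range of the DMSO libraries at days −2, 3 and 7. With 1 entry counted per gene symbol, as in the shares of all genes above, the 10 genes made up 0.0785% of the reads at day −2 and 0.269% at day 7 in DMSO, and 0.0795% and 0.34% in ML-792.

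**Figure D4:**
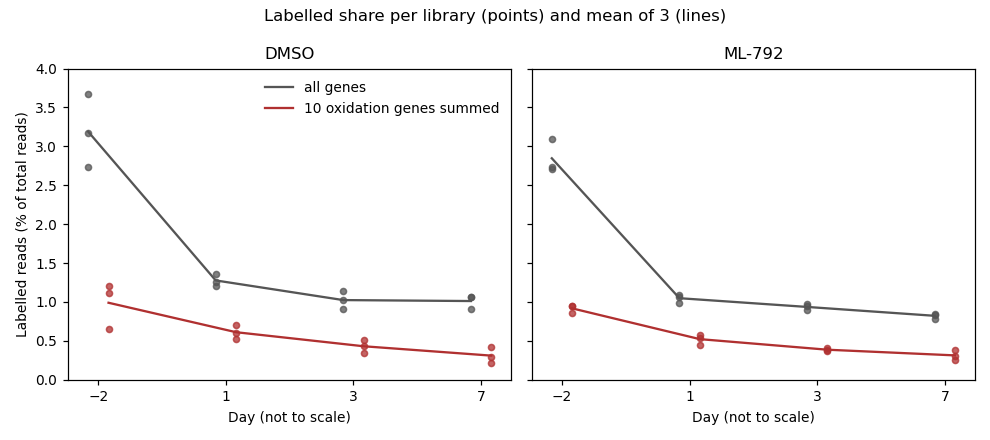
Labelled reads as a percentage of total reads for all genes (grey) and the 10 oxidation genes summed (red), with 1 point per library and lines through the means of 3, in DMSO (left) and ML-792 (right). Both means are lower at day 1 than at day −2, with a drop for all genes from 3.19% to 1.28% in DMSO, and the 10 genes lie at 0.31% at day 7 in DMSO against 1.01% for all genes.

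Other genes of the pathway moved in the same way for the most part. The 5 lists pooled here hold genes outside the 10, from the carnitine shuttle and acyl-CoA synthetases to the isomerases, whatever their place in the cell. Of 23 tested, 15 were higher and 2 lower at day 7 in DMSO, with a median log2 fold change of 1.76. In the carnitine shuttle, 3 of 5 rose and 1 fell, from *Crat*, the acetyl transferase (log2 3.43), to *Cpt1c*, the brain form of *Cpt1* (-2.91), and *Cpt1b*, the muscle form, had 1.07 (adjusted p = 0.14). Of 4 acyl-CoA synthetases, *Acsl1* rose (6.89) and *Acsl5* fell (-0.79). Of 7 further acyl-CoA dehydrogenases and electron transfer genes 5 rose, *Etfb* (2.62) most and *Acad9* (1.42) least among the called. *Echs1*, the short-chain hydratase (2.73), *Hadh* and *Hsd17b10* (2.11) made 3 of 4 in their list, and all 3 isomerases rose, from *Eci2* (1.37) to *Ech1* (1.93).

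Of the genes around the pathway, 3 of 5 that set malonyl-CoA rose at day 7, including both the synthesising *Acaca* (log2 1.55) and the degrading *Mlycd* (2.78). Among 9 regulators 7 rose, with *Ppargc1b* at 4.87, and the coactivator *Ppargc1a* fell (-1.85). Of 5 other PPAR targets 4 rose, from *Angptl4* (2.5) to *Ucp3* (6.35). *Ucp3* had at most 1 read in a DMSO library at day −2, below the floor of 3 counts, and a mean of 33.07 at day 7, so the size of its rise is uncertain. Peroxisomal oxidation had 7 of 11 higher, from *Abcd3* (0.88) to *Acaa1b* (5.8), the odd-chain route 4 of 4, from *Mcee* (1.61) to *Mut* (2.36), and the thioesterases 2 of 4, *Them4* (1.21) and *Acot2* (0.92). The background of 16% higher applies to each of these counts.

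**Figure D5:**
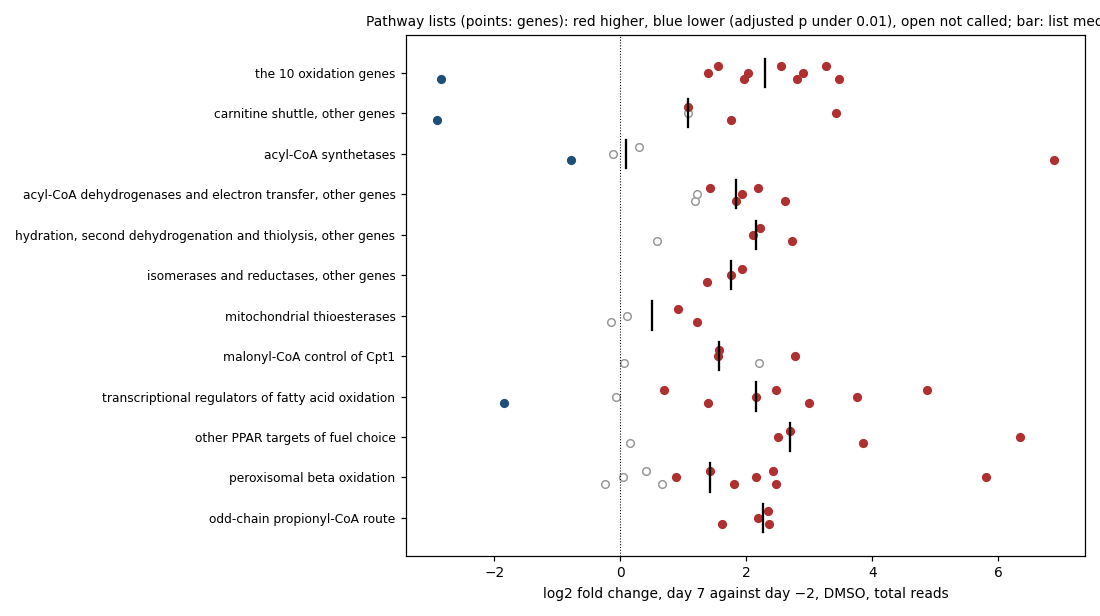
Log2 fold change of total reads at day 7 against day −2 in DMSO for the 10 oxidation genes and the further gene lists, with 1 point per gene, red where higher and blue where lower at an adjusted p under 0.01, and a bar at the list median. The median is 2.29 for the 10 genes, and *Cpt1a* and *Cpt1c* are the points at -2.85 and -2.91.

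Under ML-792 at day 7, 3 of the 23 genes of the 5 pooled lists were higher than in DMSO (5.31% of all entries) and 3 lower (4.5%). *Cpt1b* (log2 1.79, adjusted p = 0.015), *Acsl5* (1.04) and *Acat1* (0.92) were higher, and *Crat* (-0.68), *Acsl4* (-0.67) and *Etfb* (-0.59) lower. Around the pathway, *Abcd2*, a peroxisomal acyl-CoA transporter (log2 3.74, adjusted p = 4.8e-09), *Ppargc1a* (1.84) and *Nrip1* (0.98) were higher, and *Acot2* (-0.95) and *Them4* (-0.76) lower. The mean normalised count of *Ppargc1a* went from 502.7 at day −2 to 139.4 at day 7 in DMSO and stood at 498.9 at day 7 in ML-792.

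Across the 24 libraries, each gene was set against the mean standardised profile of the other 9 as a description, since these libraries share the course of differentiation. Pearson's r was 0.983 for *Decr1*, 0.969 for *Acadm*, 0.958 for *Acadvl* and *Hadhb*, 0.943 for *Cpt2*, 0.941 for *Etfdh*, 0.915 for *Hadha*, 0.902 for *Acadl*, 0.87 for *Acaa2* and -0.791 for *Cpt1a*. *Acaa2* and *Cpt1a* had the lowest values, and that of *Cpt1a* was a negative correlation. In the 12 DMSO libraries alone, r of *Cpt1a* with single other genes ran from -0.856 (*Cpt2*) to -0.986 (*Decr1*). Among 13264 other genes, *Sfrp5* (0.985), *Hsdl2* (0.981), *Cd36* (0.98), *Bag4* (0.976) and *Gnpat* (0.975) were most like the mean profile of the 10. In the 12 DMSO libraries alone none of these 5 stayed among the first 5, and their ranks were 18, 76, 83, 435 and 48.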

How the data were processed

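The authors deposited raw counts per annotated 3′UTR entry (mm10) in 2 tables, of total reads and of reads with T-to-C conversions, made with SlamDunk after demultiplexing (bcl2fastq 2.17.1.14 in the submitters' processing notes). Each file also has 6 library columns that match none of the samples described, and these were not used. The members and gene lists were chosen with earlier results of these data known. Counts were fitted here with edgeR 4.0.16 (quasi-likelihood test, TMM, filterByExpr at min.count 10 and min.total.count 15, Benjamini-Hochberg over all entries) in R 4.3.3. Time courses used the 12 libraries of a treatment and an adjusted p under 0.01, ML-792 comparisons all 24 libraries and 0.1, as in the methods of the study. Labelled counts were scaled by total reads. Alternatives were DESeq2 1.42.0, no filter, 1 entry per gene, other sets of libraries, a replicate block, labelled scaling and leaving out each replicate. Intervals are 95% (t quantile with the degrees of freedom of the fit) and floors 3 counts per library, and floors cover counting error only. Named genes are the 10 members, per list the called genes with the highest and lowest change at day 7, those called for ML-792 at day 7 and the 5 most similar genes. A gene that this rule names is not reported here. *Hadh* was named in addition, after its value was seen, as were single markers. The fitting step was tested on simulated data.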

Additional observations from a re-analysis of the deposited data

Results flagged for a closer look

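The ML-792 effect on *Acaa2* and *Cpt1a* differed between days by the interaction terms of edgeR's quasi-likelihood test. For *Acaa2* the effect at day 3 exceeded that at day −2 by 2.29 on the log2 scale (SE 0.27, adjusted p = 5.3e-06), and the effect at day 7 exceeded it by 1.46 (SE 0.26, adjusted p = 0.0024). For *Cpt1a* the excess was 0.92 at day 3 (SE 0.21, adjusted p = 0.0091) and 1.54 at day 7 (SE 0.21, adjusted p = 8.6e-05). At day −2 itself the effects were -0.01 for *Acaa2* and 0.06 for *Cpt1a*. Without replicate A neither gene kept its day 7 call (adjusted p = 0.42 for *Acaa2* and 0.1 for *Cpt1a*), and *Cpt1a* lost its day 3 call without replicate A (0.3) or C (0.11).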

How the results depend on the processing

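Counts of called members moved by at most 1 under DESeq2, without the filter, with 1 entry per gene and with other sets of libraries, and no direction reversed. *Decr1* gained the ML-792 call at day 1 and the day 3 interaction with DESeq2 and with 1 entry per gene, and the step from day 3 to 7 in DMSO under both and with all 24 libraries. *Cpt2* gained the step from day 1 to 3 without the filter and with all 24 libraries. Without the filter *Acaa2* lost day 3 in DMSO, *Etfdh* took the place of *Hadhb* at day 1 in DMSO, and *Etfdh* gained day 1 in ML-792 and day 7, the day 7 interaction and the F test for ML-792. For ML-792 against DMSO at day 1 the count was 1 without the filter and 1 with only the 6 libraries of the day, against 2. In labelled reads at day 3 it was 1 with DESeq2 and 2 with labelled scaling over the DMSO days, against 0, and 1 with DESeq2 and 1 with only the 6 libraries for ML-792, against 0. Summed over all entries of the genes, the labelled share in ML-792 was 1.01% at day −2 and 0.412% at day 3. In the 12 DMSO libraries 0 of the 5 most similar genes were kept. The causes were not tested.

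The main fits held no term for the replicate letter, although libraries of the same letter resembled each other. In total reads, 70 of 84 same-letter pairs correlated over 0.1. Their mean was 0.215, against -0.105 for pairs of different letters, and 23 of 24 libraries correlated best with their own letter. The main calls thus leave this likeness out. With a replicate block, 8 genes were called at day 1 in ML-792 (5 without it), and 5 at day 3 and 4 at day 7 for ML-792 against DMSO (3 and 2). For the interaction it gave 1, 3 and 4 at days 1, 3 and 7 and 4 by the F test (0, 2, 2 and 2). Over the DMSO days it gave 5 at day 1, 9 from day 1 to 3 and 4 from day 3 to 7 (4, 8 and 3 without it). Calls over all entries rose as well, to 9781 at day 1 in ML-792 (2482 higher and 2830 lower without it), 5576 at day 3 (1745 and 1723) and 4785 at day 7 (1401 and 1187) for ML-792 against DMSO, and 5508 by the F test (2577). For the interaction they rose to 1390 at day 1 (286 and 198), 2931 at day 3 (704 and 608) and 2448 at day 7 (456 and 402). In DMSO they rose to 5730 at day 1 (1579 and 2075), 6932 from day 1 to 3 (2468 and 2556) and 3993 from day 3 to 7 (1302 and 1001). The added genes for ML-792 were *Cpt2* and *Hadhb* at day 3 and *Cpt2* and *Etfdh* at day 7.

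Leaving out each replicate gave these ranges of called members. Over the DMSO days they were 0 to 4 at day 1, 9 to 10 at days 3 and 7, 5 to 10 from day 1 to 3 and 0 to 4 from day 3 to 7. Over the ML-792 days they were 1 to 6, 9 to 10 and 9 to 10. For ML-792 against DMSO they were 0 to 3 at day 1, 2 to 5 at day 3 and 2 to 3 at day 7, and for the interaction 0 to 1, 1 to 2 and 0 to 3, with 1 to 3 by the F test. In labelled reads the range was 1 to 2 at day 7 over the DMSO days. Single genes lost their call 25 times without replicate A, 18 times without C and 1 time without B. Labelled counts of 0 to 43 per gene and library limit what SLAMseq can show here.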
